A study of Mus musculus with 8 samples.

Results

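The chains of the interferon receptors were examined in draining lymph nodes of mice bearing B16 melanoma, a transplantable mouse skin tumor line. The set holds 6 genes: Ifnlr1 and Il10rb, which encode the chains of the type III (lambda) interferon receptor, Ifnar1 and Ifnar2, those of the type I (alpha and beta) receptor, and Ifngr1 and Ifngr2, those of the type II (gamma) receptor. The set was selected on a readout, because Ifnlr1 was among the largest rises in these arrays, and the other chains were taken in as its family. All probes of each gene were followed. The arrays hold 11 named probes for 5 of the 6 genes, and all 11 were above background on enough arrays to be kept. The kept probes number 19462 in all, and they stand for 10543 named genes. Ifnar1 was not analysed here, as no probe carries its name.

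In the 3M-052 group, 4 mice had their tumor injected once with 3M-052, an agonist of the innate RNA sensors TLR-7 and TLR-8. In the vehicle group, 4 mice received the vehicle in the same way. Tumors measured 30 to 40 mm2 at injection, all mice carried a subcutaneous B16 tumor, and the nodes were taken on day 4. The mice were female C57BL/6, 6 to 8 weeks old. The labels call the extracted tissue tumor in one place and lymph node in the others. Each node was read on an Illumina mouse bead array, on which the more of a transcript is present, the brighter are the beads with its probe. Values below are log2 normalized intensities, corrected for background and quantile normalized, and a difference is 3M-052 minus vehicle on that scale. The groups were compared with limma, a linear model fitted to all kept probes, and adjusted p-values are those of Benjamini and Hochberg over these probes, read at 0.05. By this test 546 probes, 2.81% of those kept, were higher in 3M-052 nodes, and 446, or 2.29%, were lower. With median centring of the arrays, in place of the quantile step, these counts were 428 and 145. The median difference over all kept probes was -0.0098, and the middle 95% lay between -0.94 and 1.04. With 4 arrays a group, their number sets the precision. The share of all kept probes whose groups do not overlap is not given here, so a gap between the groups is a description of the gene.

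Interferons signal through pairs of receptor chains. In each pair 1 chain binds the ligand with most of the affinity and the partner completes the complex, and kinases of the JAK family bound to the chains then phosphorylate STAT transcription factors. The type I receptor is found on nearly all cells, as are the interferon gamma receptor chains and IL10RB, whereas IFNLR1, also known as IL28RA, is largely confined to epithelial cells and to some leukocytes such as neutrophils. IL10RB is shared with the receptors for IL-10, IL-22 and IL-26 (the last known from humans). TLR-7 agonists are known for eliciting type I interferon from plasmacytoid dendritic cells.

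The nodes carried lymphocyte markers throughout. The mean level over 6 B cell markers was 10.1 to 10.4 in 3M-052 nodes and 10.2 to 10.5 in vehicle nodes, and none of them passed the test. T cell markers were lower, with 3 of 6 called and means of 10.1 to 10.6 in 3M-052 nodes against 10.9 to 11.4 in vehicle nodes, and 6 of 7 plasma cell markers were higher (4 of 5 without Derl3 and Tnfrsf17, which were detected on 1 vehicle array each and were kept through the 3M-052 group). Of the T cell list, Cd4 differed by -0.012. With median centring 0 T cell markers were called lower and 5 plasma cell markers higher, and with the fat cell marker mean as a covariate 0 of either list. Of all 19462 kept probes, median centring called 145 lower and 428 higher, and the covariate fit called 26 lower and 150 higher. Fat cell markers averaged 5.60 to 8.16 in 3M-052 nodes and 6.73 to 10.4 in vehicle nodes, and none of the 8 passed. Vehicle replicate 4 was at 6.73, and vehicle replicates 1 to 3 were at 9.36, 10.3 and 10.4. The fat cell differences were all negative, from -3.16 to -0.62, with a median of -2.22. Pigment cell markers averaged 4.84 to 5.84 in 3M-052 nodes and 5.36 to 9.84 in vehicle nodes, where vehicle replicate 3 was the highest. In whole nodes a change in the number of cells of a type and a change in RNA per cell cannot be told apart.

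Ifnlr1 (chromosome 4), the ligand-binding chain of the lambda receptor, was higher in 3M-052 nodes on both of its probes. Since this difference chose the gene, it is given as a description with no test. On its brighter probe, ILMN_2653328, log2 values were 9.86, 8.74, 10.12 and 9.49 in 3M-052 replicates 1 to 4, against 6.65, 7.02, 6.70 and 7.08 in vehicle replicates 1 to 4. The groups did not overlap, and the lowest 3M-052 node, replicate 2, lay well above the highest vehicle node. As means these were 9.55 ± 0.60 and 6.86 ± 0.22 (SD, n = 4 each), a difference of 2.69 or 6.46-fold, which placed the probe at rank 27 of the rises over all kept probes and the gene at rank 4 among named genes. On the linear scale of the normalized intensity, the probe averaged 797 ± 293 in 3M-052 nodes and 117 ± 18.0 in vehicle nodes.

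The second Ifnlr1 probe, ILMN_3009880, gave 8.50, 7.49, 8.75 and 8.46 in 3M-052 nodes and 5.36, 5.54, 5.37 and 5.92 in vehicle nodes. Here too the groups lay apart, and the difference was 2.75 or 6.73-fold. This probe was dim in vehicle nodes. Its detection p-value, the scanner software's measure of whether a probe exceeds negative control beads, was 0.011, 0, 0.0053 and 0.0021 in vehicle replicates 1 to 4 and 0 in every 3M-052 node. Without background correction the differences of the brighter and the dimmer probe were 2.31 and 1.97. Over the 8 arrays the probes correlated at 0.996, and their deviations from the group means at 0.949. Both probes thus ordered the 3M-052 nodes alike, with replicate 3 highest and replicate 2 lowest. When nodes of the same replicate number were set against each other, the brighter probe differed by 3.21, 1.73, 3.42 and 2.41 for numbers 1 to 4, and the dimmer probe by 3.14, 1.95, 3.38 and 2.54.

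**Figure D1:**
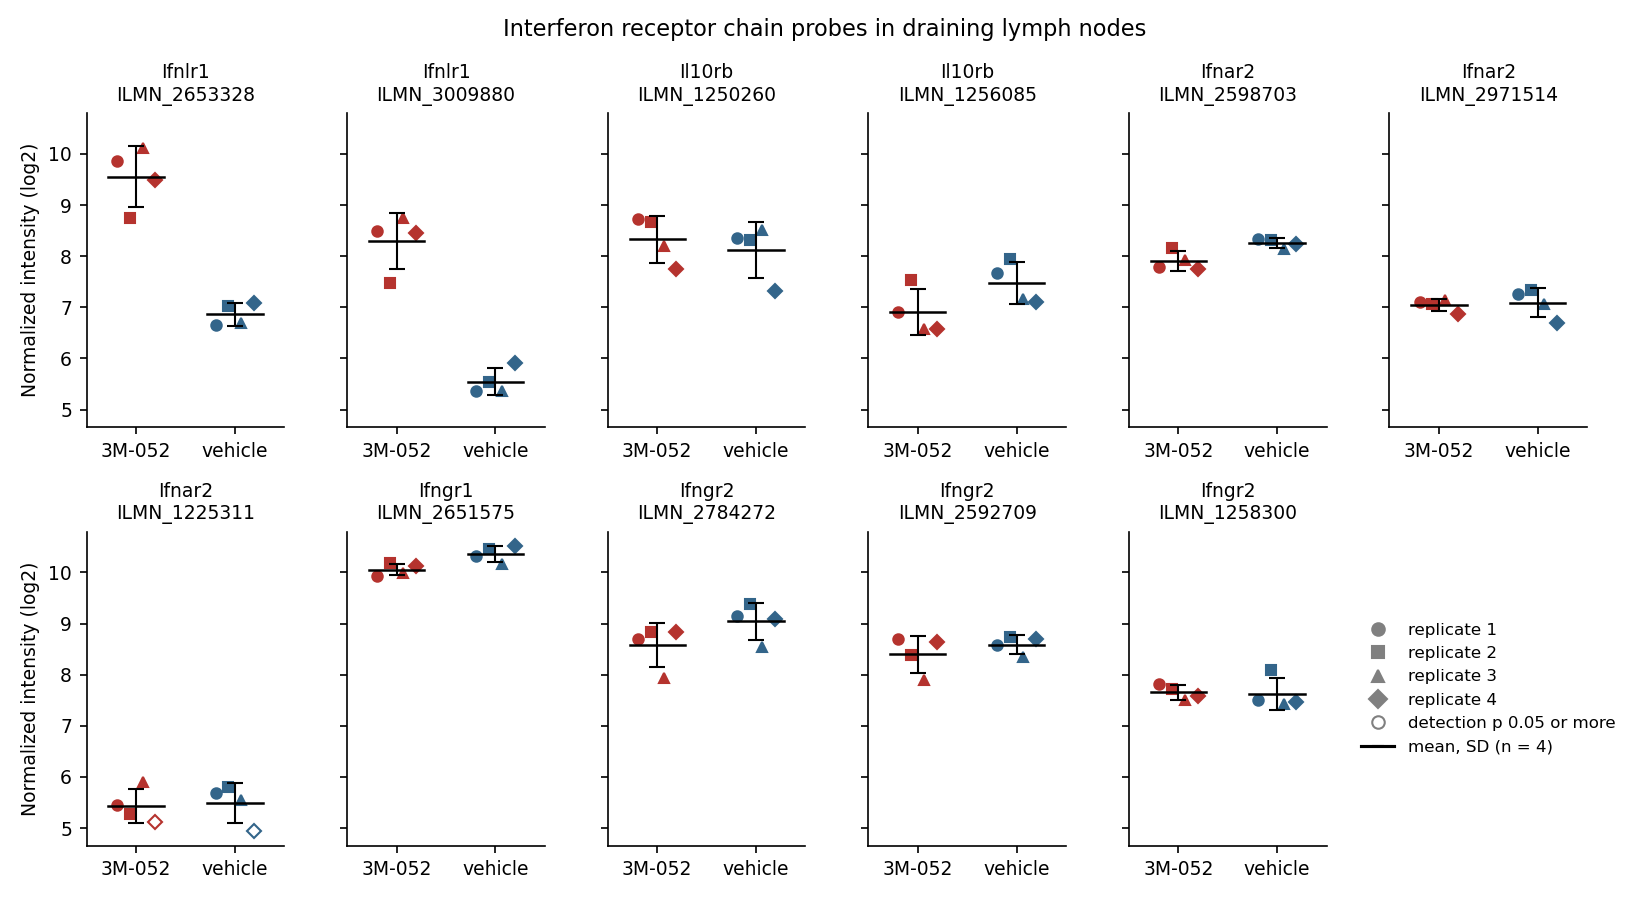
Log2 normalized intensity (y axis) of each of the 11 receptor chain probes in 3M-052 and vehicle nodes, with a point for each array (marker shape gives the replicate number, open points have a detection p of 0.05 or more) and a line with bars for the mean and SD of 4 nodes. The groups lie apart on both Ifnlr1 probes and overlap on the 9 probes of the other chains.

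Cell types that are known to carry IFNLR1 were followed through their markers. Of 10 neutrophil markers kept, none passed the test, and their mean was 5.80 to 8.21 in 3M-052 nodes and 6.52 to 7.20 in vehicle nodes. None of 8 epithelial markers passed either, with means of 5.06 to 7.65 in 3M-052 nodes and 6.83 to 8.17 in vehicle nodes. Their differences were all negative, from -2.33 to -0.098, with a median of -1.81. With the replicate number as a block, 6 of the 8 were called lower, where 1499 of the 19462 kept probes were. Of 9 markers of plasmacytoid dendritic cells, 1 was higher, Ly6d at 1.04 (limma adjusted p = 0.012). Another 3 were lower, among them the lectin gene Siglech at -1.44 (limma adjusted p = 0.031). The mean of the list was 8.77 to 9.28 in 3M-052 nodes and 8.88 to 9.19 in vehicle nodes. With the fat cell marker mean as a covariate, or by the methods' t-test after adjustment, 0 were called in either direction. Plasma cells are not among the carriers named above. Their markers were higher in 3M-052 nodes, at means of 8.97 to 9.83 against 7.86 to 8.40 in vehicle nodes. Within the 3M-052 group, replicate 3, highest for Ifnlr1, had the lowest means of the plasma cell (8.97), neutrophil (5.80) and epithelial (5.06) lists. In 3M-052 replicate 2, lowest for Ifnlr1, these means were 9.73, 8.21 and 7.65. The plasmacytoid dendritic cell mean was 8.91 in replicate 3 and 8.77 in replicate 2. The part of neutrophils, epithelial cells, plasmacytoid dendritic cells or plasma cells in the Ifnlr1 difference was not tested.

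The promoter of Ifnlr1 is shown beside that of Isg15, a classical interferon target whose values were among the most like those of Ifnlr1, and that of Ifnar2, the other ligand-binding chain for which a match was found upstream of the start. Each sequence is the 250 bases upstream of the RefSeq start in GRCm38.p6, in the direction of the gene, with matches to the motifs in capitals. The windows searched also held the 50 bases after the start, and 5 of the 6 chains had one.
Ifnlr1, chr4:135686207-135686456, plus strand: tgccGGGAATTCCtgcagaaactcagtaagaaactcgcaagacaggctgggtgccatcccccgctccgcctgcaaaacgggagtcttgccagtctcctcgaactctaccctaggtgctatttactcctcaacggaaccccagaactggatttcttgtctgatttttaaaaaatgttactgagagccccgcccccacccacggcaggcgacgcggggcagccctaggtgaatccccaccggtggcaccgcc
Isg15, chr4:156200819-156201068, minus strand: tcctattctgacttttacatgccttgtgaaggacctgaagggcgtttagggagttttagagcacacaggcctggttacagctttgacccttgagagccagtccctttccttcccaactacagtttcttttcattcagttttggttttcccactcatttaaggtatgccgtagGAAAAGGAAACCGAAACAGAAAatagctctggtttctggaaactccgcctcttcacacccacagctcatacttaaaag
Ifnar2, chr16:91372533-91372782, plus strand: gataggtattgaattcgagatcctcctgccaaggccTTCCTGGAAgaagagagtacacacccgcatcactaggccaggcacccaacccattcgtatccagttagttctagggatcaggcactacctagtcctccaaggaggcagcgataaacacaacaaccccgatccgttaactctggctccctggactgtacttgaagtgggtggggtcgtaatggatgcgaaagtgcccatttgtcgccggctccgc
Both strands were searched for 3 spellings. These were GAAANNGAAA, the core of the interferon-stimulated response element, TTCNNNGAA, the gamma-activated site, and GGGNNTTCC, a site of the NF-kB family. The spellings were chosen with the sequences in view. In the Ifnlr1 window only the NF-kB spelling had a match, GGGAATTCC at -246 to -238 from the start, and it occurs in 5.82% of all 32851 RefSeq windows of the same length. The Isg15 window held 3 overlapping matches to the response element core between -78 and -57, and 3.44% of windows hold at least 1. Ifnar2 had a gamma-activated spelling, TTCCTGGAA at -214 to -206, as did Ifnar1 across its start at -5 to 4, and 8.3% of windows hold 1. The windows of Ifngr1 and Ifngr2 held no match. Among other interferon targets that rose, Rsad2 had 1 and Ifit3 had 2 matches to the core, and Irf7 had none. These are matches of letters in short windows, not sites shown to be bound.

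Il10rb (chromosome 16), the chain that Ifnlr1 pairs with, did not pass the test on either probe. On ILMN_1250260, log2 values were 8.72, 8.67, 8.19 and 7.75 in 3M-052 nodes and 8.35, 8.33, 8.52 and 7.31 in vehicle nodes. The groups overlapped, and vehicle replicate 4 lay below all other nodes. The difference was 0.20 with a 95% interval of -0.44 to 0.85 (limma adjusted p = 0.758), and without that vehicle node it was -0.067. The second probe, ILMN_1256085, which is annotated to a cDNA record rather than a RefSeq transcript, gave 6.91, 7.53, 6.59 and 6.57 in 3M-052 nodes and 7.68, 7.95, 7.17 and 7.11 in vehicle nodes, a difference of -0.58 (interval -1.17 to 0.020, limma adjusted p = 0.263). The probes therefore differed in direction, and no direction is given for the gene. With the replicate number as a block, the second probe alone passed, at a limma adjusted p of 0.036, and it was the lower in the 3M-052 node of all 4 numbers, by 0.42 to 0.76. For Il10rb the data leave room for a change of either sign, but the intervals of both probes end below 1, well under the Ifnlr1 difference.

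Ifnar2 (chromosome 16), the ligand-binding chain of the type I receptor, had 3 probes and none passed. The brightest, ILMN_2598703, gave 7.78, 8.16, 7.93 and 7.75 in 3M-052 nodes and 8.35, 8.31, 8.14 and 8.23 in vehicle nodes. These groups all but separated, with 3M-052 replicate 2 just above vehicle replicate 3. The difference was -0.35, or 1.28-fold lower, with an interval of -0.71 to 0.0095 (limma adjusted p = 0.259), and a two-sided exact permutation test of the 8 values gave p = 0.057, where the smallest possible is 0.029. ILMN_2971514 differed by -0.043 (interval -0.47 to 0.39) and ILMN_1225311 by -0.055 (interval -0.59 to 0.48), so that the difference of the brightest probe was not shared in size by the others. On the brightest probe all 4 same-numbered differences were negative, between -0.56 and -0.15, and with the number as a block the limma adjusted p was 0.137. The dimmest probe, ILMN_1225311, was above background in 3 of 4 nodes of each group, with replicate 4 of both groups below.

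Ifngr1 (chromosome 10), the ligand-binding chain for interferon gamma, had a single probe, ILMN_2651575. Its log2 values were 9.94, 10.18, 9.98 and 10.13 in 3M-052 nodes and 10.33, 10.45, 10.16 and 10.52 in vehicle nodes. The groups overlapped only through 3M-052 replicate 2 and vehicle replicate 3. As means these were 10.06 ± 0.11 and 10.36 ± 0.16 (SD, n = 4 each), a difference of -0.31 with an interval of -0.61 to -0.0047 (limma adjusted p = 0.237; exact permutation p = 0.057, two-sided). The same-numbered differences were all negative, between -0.39 and -0.18, and the limma adjusted p with the block was 0.099. The difference was -0.17 with median centring of the arrays.

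Ifngr2 (chromosome 16), the accessory chain of the interferon gamma receptor, had 3 probes. The brightest, ILMN_2784272, gave 8.69, 8.84, 7.94 and 8.83 in 3M-052 nodes and 9.15, 9.38, 8.54 and 9.09 in vehicle nodes. The groups overlapped, as replicate 3 was the lowest node of both. The difference was -0.47, or 1.38-fold lower, with an interval of -0.998 to 0.067 (limma adjusted p = 0.314). Same-numbered nodes differed by -0.46, -0.54, -0.60 and -0.26, and with the number as a block the limma adjusted p was 0.042, past the threshold. Without 3M-052 replicate 3 the unblocked difference was -0.26. ILMN_2592709 differed by -0.19 (interval -0.63 to 0.26) and ILMN_1258300 by 0.033 (interval -0.40 to 0.47), and neither passed.

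Set against 2.81% of all probes called higher and 2.29% called lower, 0 of the 9 probes of the chains other than Ifnlr1 were called in either direction. Their differences ran between -0.58 and 0.20, within the middle 95% of all probes, and the upper ends of their intervals reached at most 0.85. At an unadjusted limma p under 0.05 the Ifngr1 probe alone passed, where 1632 of the 19462 kept probes were higher and 2339 lower. By the methods' t-test, unadjusted, the brightest Ifnar2 probe passed as well, where 1486 of all kept probes were higher and 2176 lower. With the replicate number as a block, 2 of the 9 passed, the second Il10rb probe and the brightest Ifngr2 probe, both lower in 3M-052 nodes. Under that block 1232 of all kept probes were called higher and 1499 lower. A log2 rise of the size of Ifnlr1 was therefore outside the interval of every other chain measured, while decreases of up to 1.17 were not. Ifnar2, Il10rb, Ifnar1 and Ifngr2 lie side by side in that order on chromosome 16. The next genes beyond Ifngr2, namely Tmem50b at 0.051, Dnajc28 at -0.21 and Gart at 0.062, did not pass the test. Beside Ifnlr1 on chromosome 4, Nipal3 differed by 0.35 (limma adjusted p = 0.379) and Srsf10 by -0.070 (adjusted p = 0.915), and Il22ra1, the adjoining receptor gene, was not analysed here. These neighbours were named after their values were seen.

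**Figure D2:**
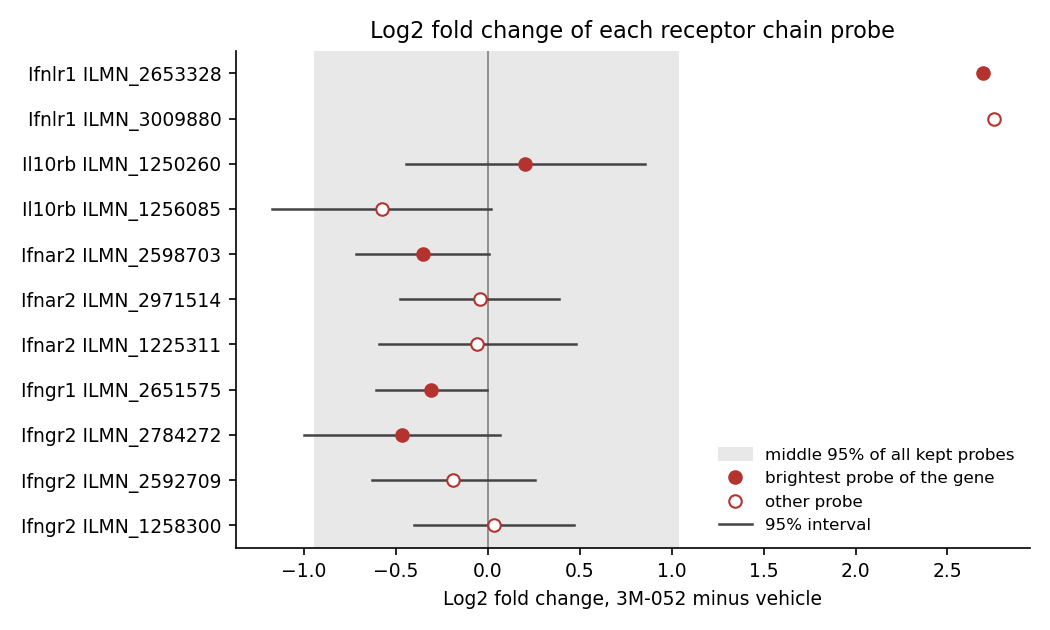
Log2 fold change, 3M-052 minus vehicle (x axis), of each receptor chain probe, filled where it is the brightest of its gene, with limma's 95% interval for all chains except Ifnlr1, which is a description; the gray band holds the middle 95% of all kept probes (-0.94 to 1.04). Both Ifnlr1 probes lie at 2.69 and 2.75, beyond the band, and the other 9 lie inside it.

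No measured ligand gene of these receptors passed the test, and most listed ligand genes had no kept probe. For type I interferons 4 of 18 listed genes had a kept probe, and none passed. Ifnab, an alpha interferon, differed by 0.42 (limma adjusted p = 0.460), Ifna6 by 0.12, Ifnz by 0.025 and Ifna1 by -0.050, a median of 0.071. Alpha interferon genes are near copies of each other, so that a probe may read several of them. Ifng, which encodes interferon gamma, had log2 values of 5.86, 5.15, 6.37 and 6.47 in 3M-052 nodes and 4.85, 5.07, 5.09 and 6.58 in vehicle nodes. Vehicle replicate 4 was the highest of all 8, and the difference of 0.56 did not pass (interval -0.31 to 1.43, limma adjusted p = 0.474). Without that node it was 0.98 (adjusted p = 0.086). The lambda interferon genes Ifnl2 and Ifnl3 were not analysed here, so that the ligands of the chain that rose are without a value.

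Related ligands and chains of the class II cytokine receptor family, to which all interferon receptor chains belong, had 5 of 11 genes with a kept probe. Il10, which encodes a cytokine that signals through IL10RB, was higher, with log2 values of 6.50, 5.62, 5.90 and 6.16 in 3M-052 nodes and 5.05, 5.28, 4.85 and 5.37 in vehicle nodes. The groups lay apart, but all values were near background, and the gene was detected in 3 of the 4 vehicle nodes. The difference was 0.91 ± 0.23 (SE, limma adjusted p = 0.044). The call was lost without 3M-052 replicate 1 (adjusted p = 0.125), 3 (0.062) or 4 (0.082), and without vehicle replicate 1 (0.134), 2 (0.107) or 3 (0.121). The other 4 did not pass: Il24, a cytokine of the IL-20 group, differed by 0.62, Il20ra, a receptor chain gene near Ifngr1 on chromosome 10, by 0.42, Il10ra, the ligand-binding chain for IL-10, by 0.17, and Il20rb by 0.10.

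Among 6 measured kinases and transcription factors that the receptors use, none passed. Stat2, which is activated by type I and type III receptors, came nearest, with log2 values of 8.21, 8.26, 8.76 and 8.39 in 3M-052 nodes and 7.01, 7.58, 7.57 and 8.00 in vehicle nodes. Every 3M-052 node lay above every vehicle node. The difference was 0.87 ± 0.23 (SE, limma adjusted p = 0.051), and it passed when the replicate number was added as a block (adjusted p = 0.012). Irf9, the DNA-binding partner of STAT2, differed by 0.31. The receptor-bound kinases had negative differences that did not pass, at -0.21 for Jak1, -0.34 for Tyk2 and -0.57 for Jak2 (adjusted p = 0.180), and Stat3 differed by -0.40. The list's median was -0.27, against -0.0098 over all probes.

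Of 10 negative regulators of interferon receptors, 2 rose, 1 fell and 7 did not pass, with a median of 0.057. The 2 that rose, Isg15 and Usp18, are also counted below among the targets of type I and type III interferon. Isg15, a ubiquitin-like modifier that in humans stabilizes USP18, had log2 values of 11.69, 10.76, 11.72 and 11.44 in 3M-052 nodes and 8.59, 8.95, 8.88 and 9.70 in vehicle nodes. It rose by 2.37 ± 0.26 (SE, limma adjusted p = 0.00053). Usp18 encodes the isopeptidase that binds the IFNAR2 chain and damps its signal. Its log2 values were 11.87, 11.78, 13.05 and 11.76 in 3M-052 nodes and 10.34, 10.98, 10.45 and 10.86 in vehicle nodes, a rise of 1.46 ± 0.27 (adjusted p = 0.012) that was lost with the fat cell marker mean as a covariate (adjusted p = 0.184). The groups lay apart for Isg15 and for Usp18, which is a description only, as both were named for passing the test. The chain that USP18 binds, Ifnar2, did not pass. Cish, a member of the suppressor of cytokine signaling family, fell by 0.62, with log2 values of 9.10, 9.20, 9.22 and 8.89 in 3M-052 nodes and 9.71, 9.77, 9.81 and 9.60 in vehicle nodes (adjusted p = 0.030). That call was lost without 3M-052 replicate 1 (adjusted p = 0.074) or 4 (0.082), without vehicle replicate 1 (0.103), 2 (0.108) or 3 (0.096), with arrays centred on their median (0.236) and with the fat cell covariate (0.276).

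The genes that these receptors switch on were read in 2 lists. Of 19 measured targets of type I and type III interferon, which share their targets, 15 rose and none fell, with a median difference of 1.49. The 15 include Isg15 and Usp18, already counted as negative regulators. Among the 15, Oas3 was detected on no vehicle array and was kept through the 3M-052 group, and without it 14 of 18 rose. Rsad2, an antiviral enzyme, had log2 values of 10.61, 10.29, 11.58 and 10.62 in 3M-052 nodes and 7.56, 8.44, 8.00 and 8.38 in vehicle nodes, a rise of 2.68 ± 0.28 (SE, limma adjusted p = 0.00039). Irf7, the factor that amplifies type I interferon production, had 10.21, 10.04, 10.59 and 10.09 in 3M-052 nodes and 7.58, 8.19, 7.72 and 8.10 in vehicle nodes, a rise of 2.33 ± 0.19 (adjusted p = 0.00012). Ifit3, an antiviral RNA-response protein, rose by 2.27 ± 0.25 (adjusted p = 0.00056). For these 3 genes, as for Isg15, every 3M-052 node lay above every vehicle node. They were named for their large rises, so that this gap is a description only. The 4 targets that did not pass, named after their values were seen, were Mx1 at 1.41 (adjusted p = 0.051), Bst2 at 0.80, Zbp1 at 0.49 and Ddx58 at 0.41. With the fat cell marker mean as a covariate 7 targets passed, where 150 of all 19462 kept probes were called higher. By the methods' t-test after Benjamini-Hochberg adjustment 5 passed, where 118 of all kept probes were called higher.

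Targets of interferon gamma moved less. Of 19 measured, 1 rose and 18 did not pass, with a median of 0.19. The gene that rose was Cxcl10, a chemokine that type I interferon also induces, with log2 values of 9.55, 8.96, 10.08 and 9.18 in 3M-052 nodes and 6.83, 7.51, 6.58 and 8.31 in vehicle nodes (difference 2.13 ± 0.36, SE, limma adjusted p = 0.0065). It did not pass with the fat cell covariate (adjusted p = 0.056) or by the methods' t-test after adjustment (0.094). The other 18 ran between -1.26 and 0.53. The difference between the 2 target lists was not itself tested.

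**Figure D3:**
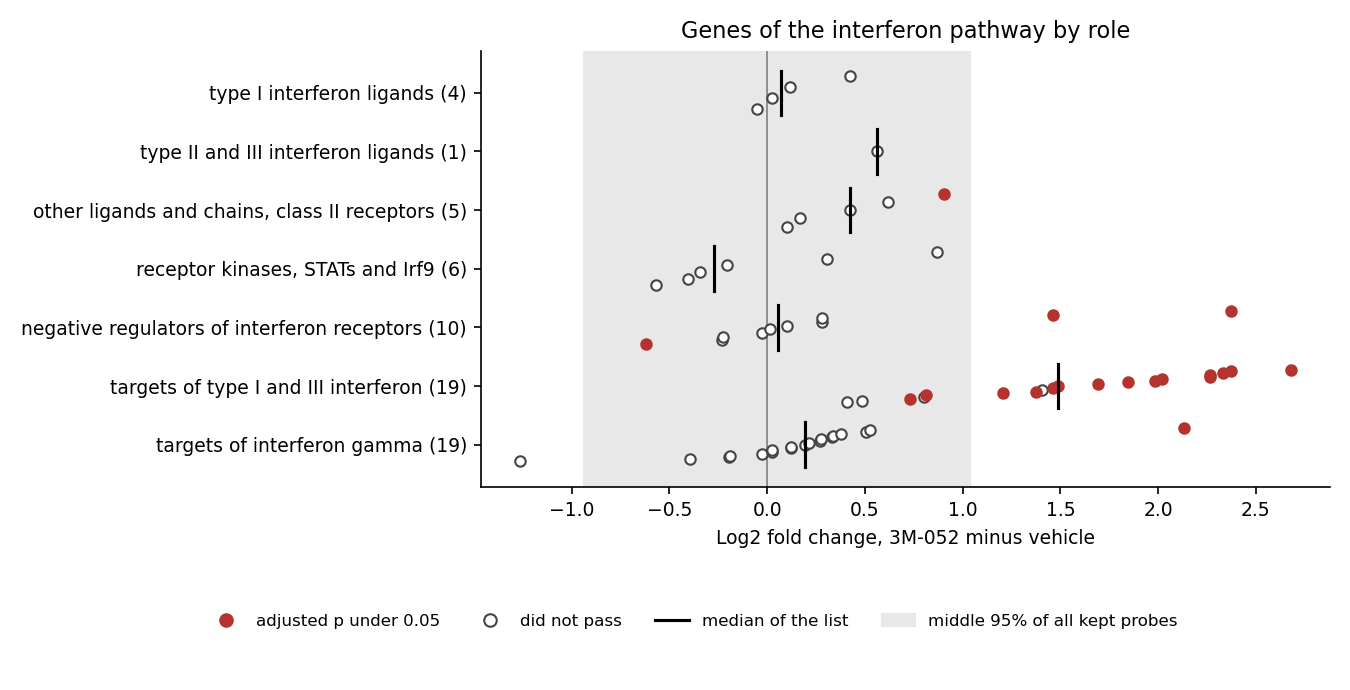
Log2 fold change, 3M-052 minus vehicle (x axis), of the measured genes of each pathway list (number measured in brackets), red where limma's adjusted p was under 0.05, with the median of the list as a black line and the middle 95% of all kept probes in gray. Of the targets of type I and III interferon 15 of 19 rose, with a median of 1.49, while the measured ligands and kinases and most gamma targets lie within the band.

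Among the 10542 other named genes, the values most like those of the brighter Ifnlr1 probe over the 8 arrays were those of Cdhr2, a cadherin gene (Pearson r = 0.993), Oas1g, of the 2'-5' oligoadenylate synthetase family (0.990), Bcs1l, a mitochondrial assembly factor (0.988), Alpl, an alkaline phosphatase (0.988), and Isg15 (0.985). These coefficients rest mostly on the gap between the groups, and they are given as a description. Cdhr2 differed by 1.96 between the groups, Oas1g by 1.83, Alpl by 2.48 and Bcs1l by 0.38. When each array was taken as its deviation from its group mean, the closest were Bcs1l (0.984), Tor3a, a torsin family ATPase (0.977), Hgh1 (0.965), Foxred1 (0.964) and Psmd13, a proteasome subunit (0.949). As the highest of 10542 genes on only 8 arrays, these coefficients too are a description, and whether unrelated genes reach such values was not tested. Bcs1l was thus the only gene among the closest 5 by both measures. Against the other receptor chains, the brighter Ifnlr1 probe had r = 0.13 with the brighter Il10rb probe and -0.87 with the brightest Ifnar2 probe. It had -0.80 with Ifngr1 and -0.64 with the brightest Ifngr2 probe. In deviations from the group means these were -0.34, -0.55, -0.25 and -0.41 in the same order. Other probes of the same genes differed, with r = -0.71 for Il10rb, -0.12 and -0.0053 for Ifnar2, and -0.37 and 0.079 for Ifngr2. No relation to Ifnlr1 is therefore given for these 3 genes.

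Across the other ways of processing the arrays, the difference of the brighter Ifnlr1 probe stayed between 2.31 and 2.96, or 4.94- to 7.79-fold. The lowest value came without background correction, the highest without 3M-052 replicate 2, the node with the lowest Ifnlr1. With the fat cell marker mean as a covariate it was 2.35. Ifngr1 stayed between -0.38 and -0.17, Ifnar2 between -0.44 and -0.15 and Ifngr2 between -0.64 and -0.21, and none of these changed sign. Il10rb ran between -0.19 and 0.62, with the negative values from the mean of its probes and from leaving out vehicle replicate 4.

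**Figure D4:**
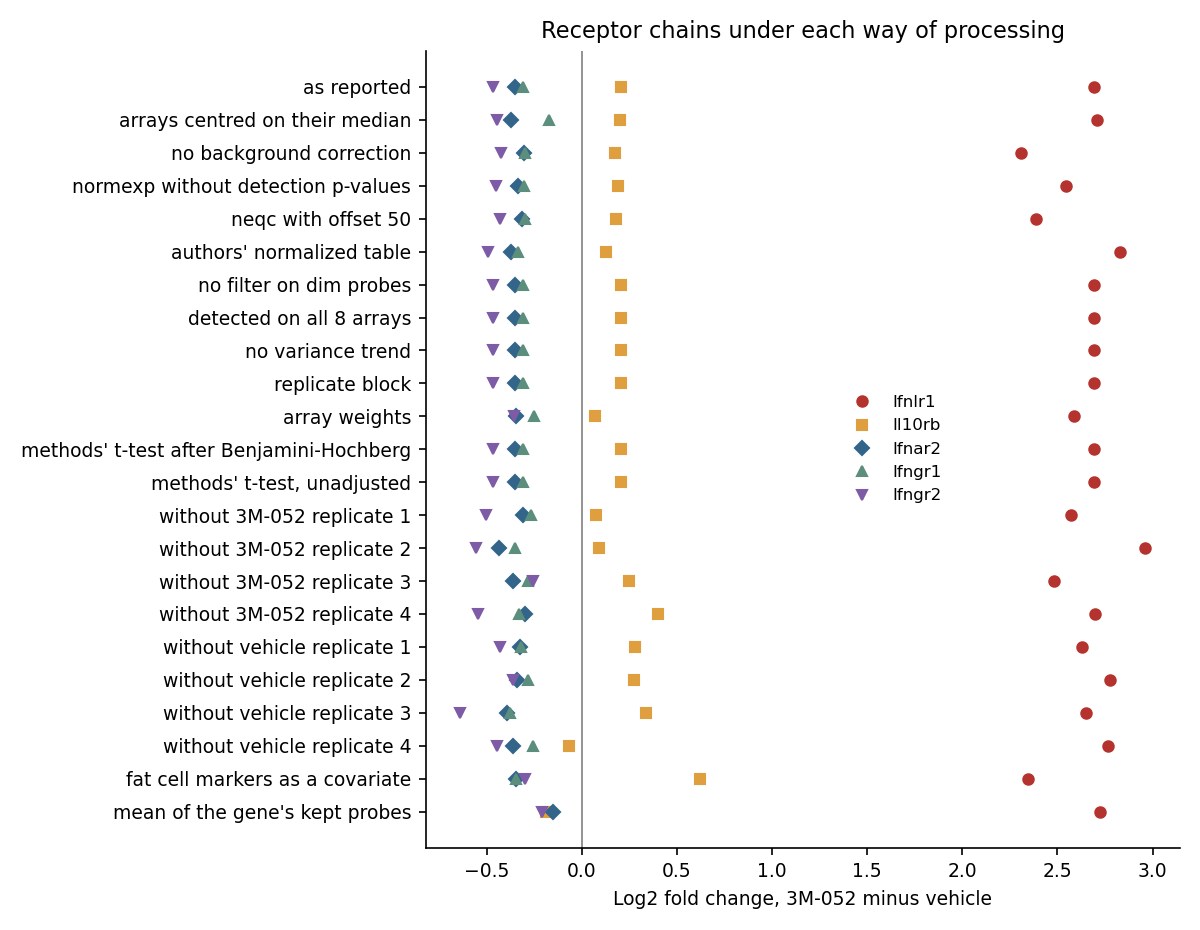
Log2 fold change, 3M-052 minus vehicle (x axis), of the brightest probe of each receptor chain as reported and under each other way of processing (rows; in the last row the mean of the gene's probes, which Ifngr1 with its single probe lacks). Ifnlr1 lies between 2.31 and 2.96 in every row, and the other chains lie between -0.64 and 0.62.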

How the data were processed

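RNA of 8 draining lymph nodes, 4 per group, was amplified, labeled with biotin and read on Illumina mouse arrays (Ref-6, version 2). The authors deposited 2 tables. The first holds the intensity of 45281 probes on a linear scale, not normalized, and a detection p-value, deposited by the authors as computed by GenomeStudio (version not given in the sources used here) in steps of 1 in 936. The second holds the intensity of 21765 probes after a normalization by the authors that the sources used here do not describe. It was read as linear, each column correlated with its own array at 0.984 or more, all its columns had 29.6 as their minimum, and its medians were 115 to 123 on 3M-052 arrays and 119 to 126 on vehicle arrays. Its probes keep their own levels, so that it was not centred by probe, and a higher value is a brighter probe.

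The first table was the source of all values. The function neqc of limma (version 3.58.1, under R 4.3.3) took the background from the detection p-values, normalized by quantiles and gave log2 values with an offset of 16. Probes with detection p under 0.05 on at least 4 of 8 arrays were kept. Groups were compared with lmFit and eBayes (variance trend), with Benjamini-Hochberg adjustment over 19462 probes. In the lists each gene is read on its brightest kept probe. Single members were also given a two-sided exact permutation test. Names come from the platform annotation, updated by gene identifier: 18216 probes have 1 name, 8 several, and 3541 of the second table none, and 18196 names were matched. Of the kept probes 16414 are named. Between 17817 and 19773 probes were detected on 3M-052 arrays and 19094 to 20315 on vehicle arrays, and mean intensity was 331 to 461 on 3M-052 arrays and 306 to 418 on vehicle arrays. Arrays correlated at 0.947 to 0.987 within groups and 0.929 to 0.977 between them.

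The members, the lists and the naming rule (all member probes, up to 4 genes per list and direction past the threshold, all genes of lists of up to 7, and the 5 most like Ifnlr1 by each measure) were chosen with earlier results of these data known. Same-numbered arrays of the groups deviated together (r = 0.19, 0.43, 0.25 and 0.57 for numbers 1 to 4, against at most 0.13 between other numbers), so that the numbers pair the arrays by the data, not by a stated design. The main fit is unpaired. That the nodes came from separate mice rests on the study's description. Alternatives were the background correction, offset, normalization, filter, variance model, replicate block, array weights, the methods' t-test, each array left out and the authors' table, and, chosen after seeing the data, the mean fat cell marker level as a covariate.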

Additional observations from a re-analysis of the deposited data

Results flagged for a closer look

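In 5 of 64 groups of 4 arrays, 1 array stood apart from the others by a gap over Dixon's 95% critical value for 4 samples, which chance gives in about 1 in 20 groups. For Il10rb probe ILMN_1250260, vehicle replicate 4 was at 7.31 and the other vehicle nodes at 8.33 to 8.52. For Ifngr2 probe ILMN_2784272, 3M-052 replicate 3 was at 7.94 and the others at 8.69 to 8.84, and for Ifngr2 probe ILMN_1258300, vehicle replicate 2 was at 8.09 and the others at 7.42 to 7.51. The mean of the T cell markers was 10.1 on 3M-052 replicate 3, the others lying above it at 10.57 to 10.63. Ifng was at 6.58 on vehicle replicate 4 and at 4.85 to 5.09 on the other vehicle nodes.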

How the results depend on the processing

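The difference of the brighter Ifnlr1 probe moved by less than the spread within groups under every alternative that can change a fold (the filters, the variance model, the block and the t-tests cannot). The dimmer probe was at 1.97 without background correction, against 2.75, a move beyond its spread. Il10rb turned negative without vehicle replicate 4 (-0.067) and with the mean of its probes (-0.19), and ran from -0.067 to 0.40 with 1 array left out. By the methods' t-test, unadjusted, Ifnar2 at -0.35 and Ifngr1 at -0.31 passed, where they had not, and neither did after adjustment. The paired analysis, with the replicate number as a block, brought Ifngr2 at -0.47 past the threshold (limma adjusted p = 0.042) and raised the probes called to 1232 higher and 1499 lower; beside this, the second Il10rb probe and Stat2, it changed no other call of a member and no other count of a pathway list by over 1.5 times. Ifnar1 gave no value. The cause of these changes was not tested.

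Of all probes, array weights called 838 higher and 869 lower, the t-test 118 and 98 after adjustment and 1486 and 2176 unadjusted, and the fat cell covariate, which takes up a degree of freedom, 150 and 26. Fewer were lower with arrays centred on their median (145) and with no filter on dim probes (255). With 1 array left out, 269 to 667 were higher and 115 to 661 lower. Counts of probes higher fell by over 1.5 times without 3M-052 replicate 1 (269) or vehicle replicate 1 (288) or 2 (287), and counts lower without 3M-052 replicate 1 (149) or 4 (260) or vehicle replicate 1 (122), 2 (115) or 3 (230).

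Of the class II family, 0 genes were higher with median centring, no background correction, normexp without detection p-values, the authors' table, no filter, detection on all 8 arrays, the adjusted t-test or the fat cell covariate, 2 were higher by the unadjusted t-test, and 0 to 1 with 1 array left out. Of kinases and transcription factors, 1 was higher with no background correction, normexp, detection on all 8 arrays, the block, array weights or the unadjusted t-test, 1 was lower with array weights, and 0 to 1 were higher and 0 to 1 lower with 1 array left out. Of negative regulators, 1 was higher by the adjusted t-test or with the fat cell covariate; 0 were lower with median centring, no filter or the fat cell covariate, 2 by the unadjusted t-test and 0 to 1 with 1 array left out. Targets of type I and III interferon numbered 5 higher by the adjusted t-test and 7 with the fat cell covariate. Of gamma targets, 0 were higher by the adjusted t-test or with the fat cell covariate and 3 by the unadjusted t-test, and 0 to 1 were lower with 1 array left out (1 without 3M-052 replicate 3).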
